A study of Mus musculus with 12 samples.

Results

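The 10 genes described here act on the translation and storage of germ cell mRNA: *Dazl* and *Boll*, *Pabpc1* with its partners *Paip1* and *Paip2*, the Y-box genes *Ybx1* and *Ybx2*, *Cpeb1*, and the cap-binding genes *Eif4e* and *Eif4g3*. Their members were all probesets whose platform annotation names exactly 1 of these genes, which gave 26 of the 45037 probesets tested. *Paip1* was chosen from these same arrays for its fall into spermatids, so that its differences between spermatids and the other populations are given as a description, with no test. Expression was measured on 12 Affymetrix Mouse Genome arrays of flow-sorted testicular cells, 2 arrays for each of 6 groups. The groups were prepachytene spermatocytes (from leptotene to early pachytene), pachytene spermatocytes (from mid pachytene to diplotene) and spermatids, each from PWD males (PWD/Ph, an inbred strain of wild *M. m. musculus* origin) and from B6 males (C57BL/6J, a laboratory strain). All males were untreated and, by the labels, 8 to 10 weeks old. The duplicates of a group came from different animals by the series' design, but no label says which populations came from the same animal. Each p-value hence measures a difference against the spread within pairs of sorted samples, pooled over the 6 groups.

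Male germ cells make many mRNAs long before the protein is needed, because transcription stops when the spermatid nucleus condenses. Such messages are held in ribonucleoprotein particles by Y-box proteins and are later recruited to ribosomes. The DAZ family proteins bind messages and bring in poly(A)-binding protein. Poly(A)-binding protein in turn contacts the eIF4G scaffold on the cap-binding protein eIF4E. PAIP1 favours this contact and PAIP2 opposes it, whereas CPEB1 binds messages whose poly(A) tails are to be lengthened.

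RefSeq promoter windows of build GRCm38.p6 were found for 8 of the 10 genes, 13 windows in all; *Pabpc1* and *Paip2* had none in the table. The stretches below are shown because *Dazl* and *Cpeb1* were the members that fell most into pachytene cells, and *Ybx2* and *Boll* are germ cell members that stayed high there. Each is the 150 bases before the outermost start in the table, 5′ to 3′ on the strand of the gene, and capitals mark each CG pair.
Dazl, chr17:50293621-50293770, minus strand: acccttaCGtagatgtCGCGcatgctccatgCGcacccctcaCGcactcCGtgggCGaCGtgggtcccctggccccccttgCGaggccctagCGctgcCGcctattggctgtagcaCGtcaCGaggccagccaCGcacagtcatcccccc
Cpeb1, chr7:81454759-81454908, minus strand: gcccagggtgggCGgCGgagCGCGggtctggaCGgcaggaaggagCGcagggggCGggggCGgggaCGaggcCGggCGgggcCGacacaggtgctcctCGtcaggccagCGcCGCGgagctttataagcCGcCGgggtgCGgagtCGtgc
Ybx2, chr11:69935749-69935898, plus strand: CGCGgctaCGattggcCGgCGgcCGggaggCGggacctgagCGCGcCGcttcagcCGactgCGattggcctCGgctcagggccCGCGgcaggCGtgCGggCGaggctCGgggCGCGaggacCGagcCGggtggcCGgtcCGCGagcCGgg
Boll, chr1:55363754-55363903, minus strand: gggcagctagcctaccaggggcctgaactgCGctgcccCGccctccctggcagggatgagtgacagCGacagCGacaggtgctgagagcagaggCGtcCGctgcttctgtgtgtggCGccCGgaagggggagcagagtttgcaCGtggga
These stretches held 14, 20, 27 and 9 CG pairs, in the order shown. Over the 250 bases before a start, the windows of all genes had a median of 6 CG pairs, against 20 for *Dazl*, 25 for *Cpeb1*, 35 for the outer start of *Ybx2* and 11 for the outer start of *Boll*. The members that fell and those that stayed high thus both had windows above that median. All letters named here were searched on both strands. The E-box letters CACGTG stood in a window of *Boll* and of *Eif4e* and in 6.02% of all windows. TATAAA stood only in the *Cpeb1* window among the members and in 12.4% of all windows. In the *Cpeb1* stretch above it lies on the strand opposite to the gene. The letters CNCCTCAG, where N is any base, stood in the inner window of *Ybx2* and in 6.42% of all windows. A match is a description of letters, not a site. The annotated spans of *Cpeb1*, *Ybx2* and *Boll* reach upstream of these starts, so that the *Cpeb1* stretch and parts of the *Ybx2* and *Boll* stretches lie inside the annotated gene.

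All levels below are log2 values, and they are compared between groups for a probeset, not between probesets. A background level of 5.38 was set as the 95th percentile of 59 probesets of 33 genes of other organs. Of the 26 member probesets, 17 had a 12-array mean above it and 20 had at least 1 group mean above it. *Cpeb1*, *Paip1* 1441955_s_at and *Eif4g3* 1430578_at passed only through the groups where they were high. *Paip1* 1425521_at had a 12-array mean above that level, but only its PWD group means were above it. For group means under 5.38, a difference is only approximate in size. A gene is represented by its brightest probeset, the one of highest 12-array mean, unless another is named. A difference is called where the adjusted p from limma over all 45037 probesets was under 0.05, and standard errors are those of limma.

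The mean of each stage's marker list was highest in the population of its label, but *Prm1*, *Prm2* and *Tnp2* in PWD were not highest in spermatids. The mean of 9 prepachytene markers was 11.47 to 11.62 in prepachytene arrays, 6.76 to 7.42 in pachytene arrays and 6.79 to 7.47 in spermatid arrays, and that of 7 pachytene markers was 9.54 to 9.92, 12.98 to 13.27 and 12.12 to 12.54 in the same order. The 11 spermatid markers averaged 11.86 and 12.30 in PWD and 11.16 and 11.20 in B6 prepachytene cells. Their mean was 9.88 to 10.59 in pachytene cells and 13.15 to 13.99 in spermatids. It was thus higher in prepachytene than in pachytene cells, with 8 of the 11 called lower and 2 higher in pachytene cells. *Prm1*, *Prm2* and *Tnp2* averaged 15.61, 11.89 and 10.93 in PWD spermatids, lower than the 15.75, 13.36 and 12.46 in PWD prepachytene cells. The other spermatid markers were higher in PWD spermatids than in PWD prepachytene cells, and in B6 all 11 were higher in spermatids. The 9 Sertoli cell markers averaged 7.75 and 7.46 in PWD and 6.85 and 6.42 in B6 prepachytene cells, 4.07 to 4.45 in pachytene cells and 4.68 to 5.67 in spermatids, with 5 or 6 of the 9 above the background level on prepachytene arrays. *Clu* averaged 14.30 in PWD and 13.22 in B6 prepachytene cells, *Ctsl* 13.72 and 14.00, *Vim* 10.43 and 7.89, *Rhox5* 9.05 and 6.89 and *Cldn11* 7.80 and 5.86, in the same order, whereas *Sox9*, *Amh* and *Gata4* were below the background level in all 6 groups. Of 6 measured spermatogonial markers, 3 or 4 were above the background level in prepachytene arrays and at most 1 in the other arrays, and the lists averaged 2.67 to 3.75 for 4 Leydig cell genes, 3.11 to 3.76 for 5 peritubular and blood genes and 3.08 to 3.61 for the genes of other organs. The part of these other cells in the differences below was not tested. In sorted samples, fewer cells of a type and less RNA per cell cannot be told apart.

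The first question was how the members differ between the stages of spermatogenesis. *Dazl*, *Cpeb1*, *Paip2* and *Paip1* fell in pachytene cells relative to prepachytene cells, while *Ybx2*, *Ybx1* and *Eif4g3* rose, and *Boll*, *Pabpc1* and *Eif4e* were not called. Over all probesets tested, 44.3% were called higher and 24.6% lower in this comparison, against 3 and 4 of the 10 members. Of the probesets above the background level, 39.9% were called higher and 41.9% lower. The 4 lower members include *Cpeb1*, which passed that level only through its prepachytene cells. The median difference was 0.05 over the members and 0.07 over all probesets. Between spermatids and pachytene cells, *Dazl*, *Paip2* and *Cpeb1* were called higher and *Boll* and *Pabpc1* lower among the 9 members other than *Paip1*. *Cpeb1* lay below the background level in both of these populations. Over all probesets 12.1% were called higher and 18.4% lower, against 23.0% and 45.5% of those above the background level. Between spermatids and prepachytene cells all of those 9 members were called, *Cpeb1* with only its prepachytene cells above the background level. *Ybx1*, *Ybx2*, *Eif4e* and *Eif4g3* were higher and *Dazl*, *Boll*, *Pabpc1*, *Paip2* and *Cpeb1* lower. In this comparison 48.3% of all probesets were higher and 27.9% lower. Most probesets above the background level were also called, 38.1% higher and 50.2% lower. For *Boll* the other 2 probesets above the background level were called higher in that comparison, and for *Pabpc1* the difference was 0.08 and not called (adjusted p = 0.259 from limma) when the arrays were centred on probesets above the background level.

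**Figure D1:**
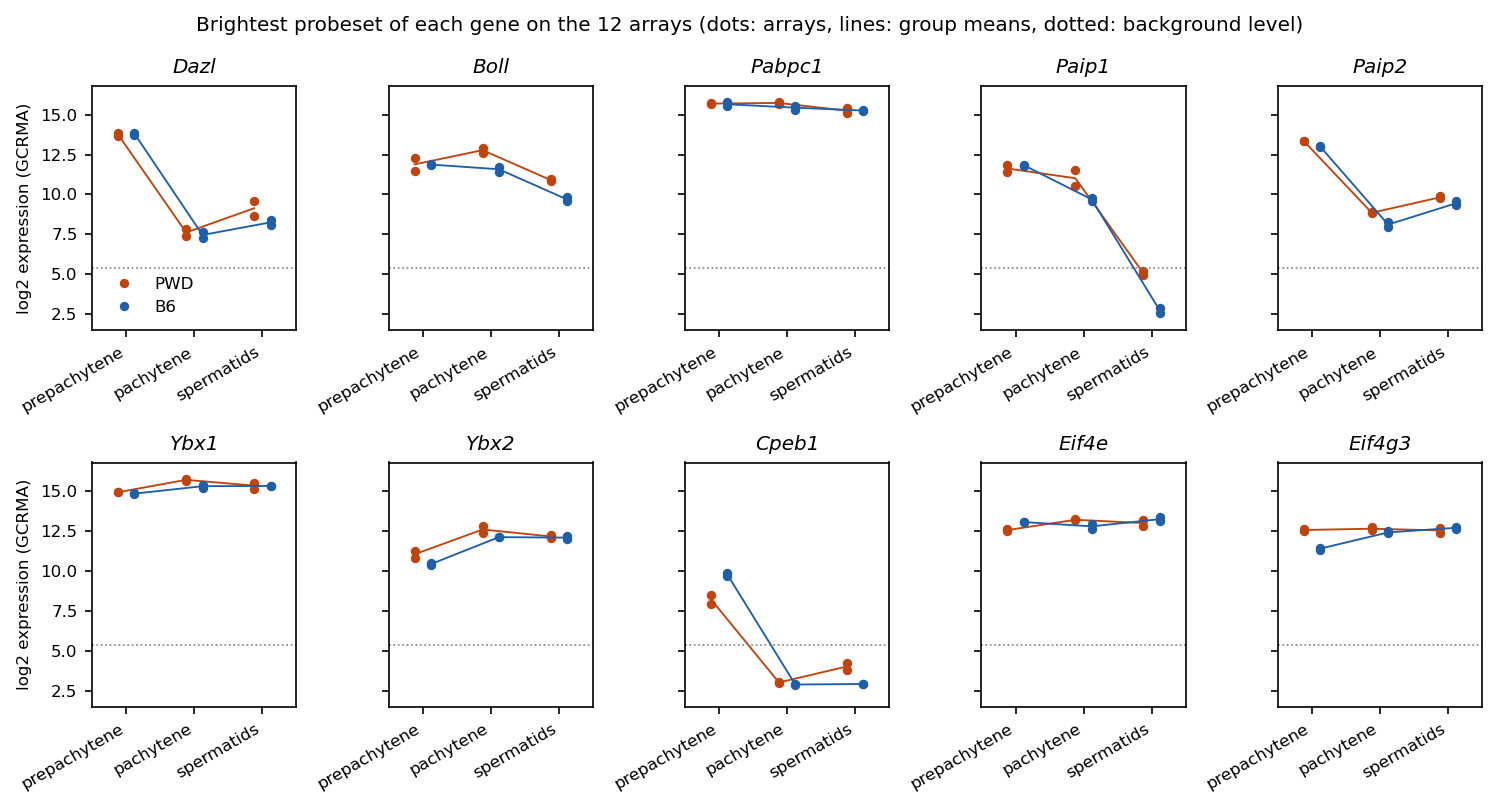
Log2 expression (y axis) of the brightest probeset of each of the 10 genes in the 3 populations (x axis), with a dot for each array and lines through the group means of PWD and B6; the dotted line is the background level of 5.38. *Dazl*, *Paip2* and *Cpeb1* drop between prepachytene and pachytene cells, *Paip1* lies at 2.58 to 5.18 in spermatids only, and *Pabpc1*, *Ybx1*, *Eif4e* and *Eif4g3* stay above 11 in every group.

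*Dazl* (Chr 17, 50279393-50293620) encodes an RNA-binding protein that germ cells need to enter and pass through meiosis. Its brightest probeset (1449502_at) read 13.86 and 13.64 in PWD and 13.75 and 13.88 in B6 prepachytene cells. The values were 7.37 and 7.87 in PWD and 7.64 and 7.28 in B6 pachytene cells, and 8.67 and 9.60 in PWD and 8.08 and 8.43 in B6 spermatids. All 4 prepachytene arrays stood more than 4 above every other array, with no overlap. The mean was 7.54 in pachytene cells and 13.78 in prepachytene cells, a difference of -6.24 (SE 0.22, adjusted p = 1.3e-07 from limma). The other probeset (1419542_at) gave -6.57 (adjusted p = 7.78e-08) for the same comparison. From pachytene to spermatids the probesets parted: 1449502_at rose by 1.15 (adjusted p = 0.00427) and 1419542_at fell by 1.28 (adjusted p = 0.00179). The arrays of 1419542_at overlapped between these populations. Averaging the 2 probesets left -0.06 for the gene.

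*Boll* (Chr 1, 55243566-55363789), another member of the DAZ family, is expressed later than *Dazl* and is needed for spermatid stages. Its brightest probeset (1456842_at) read 12.27 and 11.50 in PWD and 11.92 and 11.83 in B6 prepachytene cells, 12.62 and 12.93 in PWD and 11.73 and 11.43 in B6 pachytene cells, and 10.82 and 11.00 in PWD and 9.82 and 9.56 in B6 spermatids. The 4 spermatid arrays were all below the other 8. Pachytene and prepachytene arrays overlapped, with a difference of 0.30 (SE 0.18, adjusted p = 0.164). It was called at 0.49 without PWD prepachytene replicate 1 (adjusted p = 0.0135), at 0.54 with centred arrays (adjusted p = 0.00946) and at 0.83 for the mean of the probesets (adjusted p = 0.000206). Spermatids were lower than pachytene cells by -1.88 (SE 0.18, adjusted p = 7.6e-05). The probesets 1432530_s_at and 1427599_at gave another course, higher in pachytene than in prepachytene cells by 0.53 (adjusted p = 0.00339) and 1.67 (adjusted p = 3.18e-05), and higher in spermatids than in prepachytene cells by 0.56 (adjusted p = 0.00213) and 1.66 (adjusted p = 2.47e-05). They differed between spermatids and pachytene cells by 0.03 (95% interval -0.22 to 0.28) and -0.01 (-0.37 to 0.35), neither called. The remaining probeset, 1432529_at, was below the background level in every group mean.

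Poly(A)-binding protein itself was bright in all populations. *Pabpc1* (Chr 15, 36595658-36609581) read 15.72 and 15.68 in PWD and 15.54 and 15.77 in B6 prepachytene cells, 15.70 and 15.78 in PWD and 15.56 and 15.32 in B6 pachytene cells, and 15.10 and 15.41 in PWD and 15.27 and 15.26 in B6 spermatids. The 12 arrays thus lay between 15.10 and 15.78. Spermatids differed from pachytene cells by -0.33 (SE 0.09, adjusted p = 0.0222), with overlapping arrays. That call was lost when B6 pachytene replicate 1, PWD pachytene replicate 2, PWD spermatids replicate 1 or either B6 spermatid array was left out (differences of -0.33 to -0.26, adjusted p 0.0518 to 0.0776). It was also lost at -0.07 (adjusted p = 0.32) when the arrays were centred on probesets above the background level. The dimmer probeset 1453840_at gave -2.43 (SE 0.45, adjusted p = 0.0021) in pachytene against prepachytene cells and -2.97 (SE 0.45, adjusted p = 0.0011) in spermatids against pachytene cells, where its mean of 3.72 is below the background level. *Pabpc1* has close relatives, and probes may share signal with them.

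*Paip1* (Chr 13, 119428331-119460323) encodes a poly(A)-binding protein partner that stimulates translation, and its probesets split into courses that do not match. The brightest, 1451740_at, read 11.86 and 11.39 in PWD and 11.86 and 11.82 in B6 prepachytene cells, 10.52 and 11.52 in PWD and 9.79 and 9.60 in B6 pachytene cells, and 5.18 and 4.95 in PWD and 2.58 and 2.89 in B6 spermatids. All spermatid arrays were below the background level. The mean was 3.90 in spermatids and 10.36 in pachytene cells, a difference of -6.46, which is the fall that the gene was chosen for. The difference between pachytene and prepachytene cells was -1.38 (SE 0.23, adjusted p = 0.00103), a comparison that shares the pachytene arrays with that choice, and the arrays overlapped. It was -0.03 (adjusted p = 0.909) when the probesets of the gene were averaged.

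The probeset 1425521_at of *Paip1* read 10.33 and 8.90 in PWD and 5.25 and 5.23 in B6 prepachytene cells, 12.06 and 12.24 in PWD and 5.49 and 5.21 in B6 pachytene cells, and 9.16 and 9.11 in PWD and 4.81 and 5.04 in B6 spermatids. The PWD arrays were all above 8, and the B6 means were below the background level in all populations. Over both strains it was higher in pachytene than in prepachytene cells by 1.32 (SE 0.28, adjusted p = 0.00384), the direction opposite to 1451740_at. The mean in spermatids was 7.03, against 8.75 in pachytene cells. Another probeset, 1441955_s_at, read 7.24 and 5.76 in PWD and 3.12 and 3.41 in B6 prepachytene cells, 9.84 and 10.14 in PWD and 4.22 and 3.30 in B6 pachytene cells, and 6.70 and 4.55 in PWD and 2.88 and 3.12 in B6 spermatids. In PWD its means had the same order as those of 1425521_at, highest in pachytene cells, and its B6 means were below the background level in all populations. The remaining probeset, 1456852_at, lay between 2.19 and 2.36 on all arrays.

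**Figure D2:**
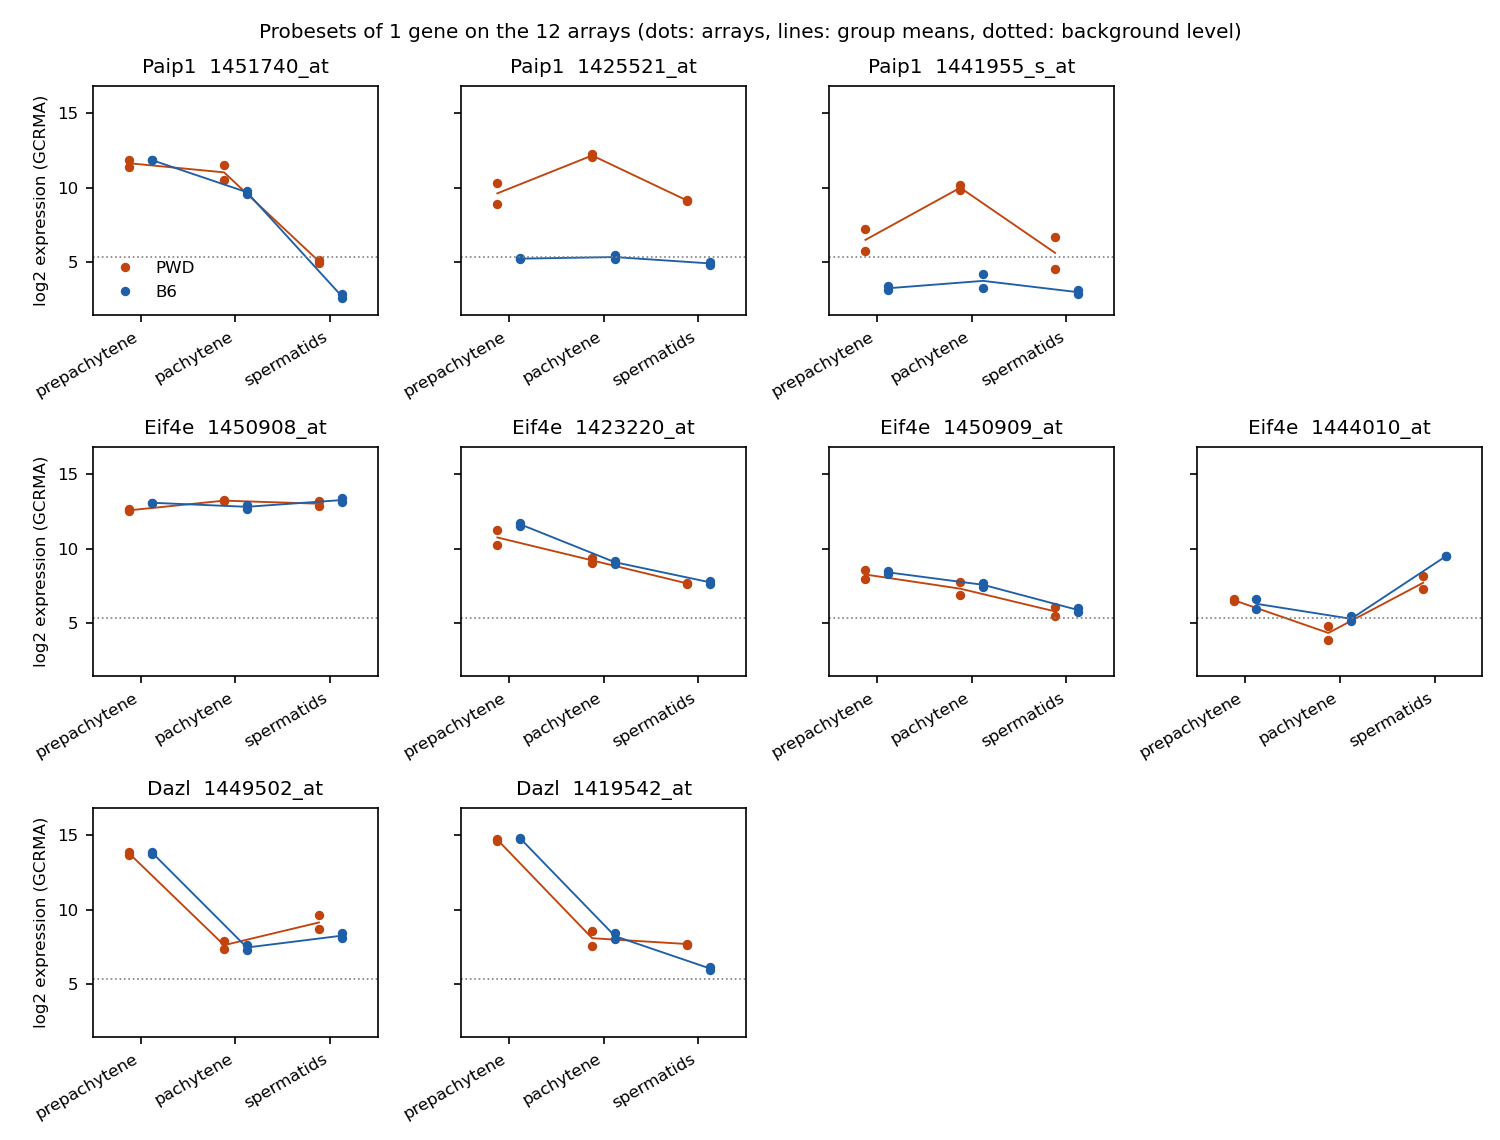
Log2 expression (y axis) of each probeset of *Paip1*, *Eif4e* and *Dazl* with a group mean above the background level, by population (x axis), with a dot for each array and lines through the means of PWD and B6. *Paip1* 1451740_at is low in spermatids of both strains, 1425521_at and 1441955_s_at separate PWD above B6 throughout, and *Eif4e* 1444010_at is highest in spermatids where 1423220_at and 1450909_at are lowest.

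*Paip2* (Chr 18, 35598610-35617186), the gene of the poly(A)-binding protein inhibitor, has 1 probeset. It read 13.36 and 13.36 in PWD and 12.97 and 13.06 in B6 prepachytene cells, 8.81 and 8.90 in PWD and 8.29 and 7.94 in B6 pachytene cells, and 9.76 and 9.88 in PWD and 9.58 and 9.32 in B6 spermatids. The 3 populations did not overlap. Pachytene cells were lower than prepachytene cells by -4.70 (SE 0.11, adjusted p = 1.63e-08), and spermatids were higher than pachytene cells by 1.15 (SE 0.11, adjusted p = 6.43e-05) but lower than prepachytene cells by -3.55 (SE 0.11, adjusted p = 4.77e-08).

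The Y-box members were high in every population. *Ybx2* (Chr 11, 69935805-69941604), the germ cell Y-box protein that binds stored messages, read 11.25 and 10.84 in PWD and 10.37 and 10.49 in B6 prepachytene cells, 12.41 and 12.80 in PWD and 12.10 and 12.14 in B6 pachytene cells, and 12.09 and 12.24 in PWD and 12.20 and 11.98 in B6 spermatids. All pachytene and spermatid arrays were above all prepachytene arrays. It rose by 1.62 (SE 0.13, adjusted p = 1.01e-05) in pachytene against prepachytene cells, and spermatids differed from pachytene cells by -0.23 (95% interval -0.52 to 0.06, adjusted p = 0.262). *Ybx1* (Chr 4, 119277327-119296265), the widely expressed relative, lay between 14.82 and 14.94 in prepachytene cells, 15.22 and 15.79 in pachytene cells and 15.17 and 15.53 in spermatids. It was higher in pachytene than in prepachytene cells by 0.62 (SE 0.09, adjusted p = 0.000384), and spermatids differed from pachytene cells by -0.17 (95% interval -0.37 to 0.02, adjusted p = 0.208). Its other probesets, 1438064_at and 1430720_at, had no group mean above the background level.

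*Cpeb1* (Chr 7, 81347026-81458001), which in mouse is needed for early meiosis and directs cytoplasmic polyadenylation, was above the background level only in prepachytene cells. It read 8.51 and 7.95 in PWD and 9.70 and 9.87 in B6 prepachytene cells, 3.00 and 3.02 in PWD and 2.86 and 2.91 in B6 pachytene cells, and 4.26 and 3.78 in PWD and 2.90 and 2.93 in B6 spermatids. The prepachytene arrays were separate from all others. The mean was 2.95 in pachytene cells and 9.01 in prepachytene cells, a difference of -6.06, of approximate size because the pachytene cells lay at background. *Cpeb1* passed the background level only through its prepachytene cells, so this difference is given as a description. The difference of 0.52 (SE 0.16, adjusted p = 0.0434) between spermatids and pachytene cells lay wholly below the background level. That call was lost without any of 9 arrays, all but the PWD prepachytene arrays and PWD spermatids replicate 2 (differences of 0.40 to 0.53).

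Of the cap-binding members, *Eif4g3* (Chr 4, 137991779-138207086), a scaffold of the eIF4F complex that is needed in mouse for exit from meiotic prophase, read 12.54 and 12.60 in PWD and 11.46 and 11.34 in B6 prepachytene cells, 12.55 and 12.76 in PWD and 12.48 and 12.36 in B6 pachytene cells, and 12.37 and 12.71 in PWD and 12.77 and 12.65 in B6 spermatids. Only the B6 prepachytene arrays were below 12. The difference was 0.55 (SE 0.10, adjusted p = 0.00144) between pachytene and prepachytene cells and 0.09 (95% interval -0.13 to 0.31, adjusted p = 0.655) between spermatids and pachytene cells. The probeset 1430578_at had group means above the background level in spermatids alone, with 5.35 and 6.08 in PWD and 5.74 and 6.46 in B6 spermatids and a mean of 4.37 in pachytene cells. It is shown only because of its spermatid level, so no test is given for it, and 1440571_at and 1446145_at stayed below that level in all groups.

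*Eif4e* (Chr 3, 138526191-138559696), the cap-binding protein, had 4 probesets above the background level, and they took different courses. The brightest, 1450908_at, read 12.50 and 12.62 in PWD and 13.06 and 13.08 in B6 prepachytene cells, 13.23 and 13.18 in PWD and 12.95 and 12.64 in B6 pachytene cells, and 12.83 and 13.18 in PWD and 13.38 and 13.12 in B6 spermatids. The populations overlapped, with differences of 0.19 (SE 0.11, adjusted p = 0.157) in pachytene against prepachytene cells and 0.12 (SE 0.11, adjusted p = 0.554) in spermatids against pachytene cells. Both were called after another quantile normalization, at 0.23 (adjusted p = 0.0222) and 0.26 (adjusted p = 0.0223), and with centred arrays, at 0.43 (adjusted p = 0.00104) and 0.38 (adjusted p = 0.00365). Spermatids differed from prepachytene cells by 0.31 (adjusted p = 0.0311), by 0.49 after quantile normalization (adjusted p = 0.000417) and by 0.81 with centred arrays (adjusted p = 7.34e-06), but by -0.87 for the mean of the probesets (adjusted p = 8.84e-05). The call of 0.31 in spermatids against prepachytene cells was lost without PWD prepachytene replicate 1, PWD spermatids replicate 2, B6 spermatids replicate 1 or either B6 prepachytene array (0.22 to 0.31, adjusted p 0.0649 to 0.104). By contrast 1423220_at stepped down at each stage, with values between 10.25 and 11.74 on prepachytene arrays, 8.97 and 9.37 on pachytene arrays and 7.64 and 7.84 on spermatid arrays, and no overlap. Its differences were -2.04 (SE 0.21, adjusted p = 6.06e-05) in pachytene against prepachytene cells and -1.44 (SE 0.21, adjusted p = 0.000842) in spermatids against pachytene cells, and 1450909_at gave -0.89 (adjusted p = 0.0133) and -1.60 (adjusted p = 0.00116). After quantile normalization the first of these was -0.44 and not called (adjusted p = 0.159). The dimmest, 1444010_at, turned the other way in spermatids, with 7.29 and 8.14 in PWD and 9.51 and 9.47 in B6, a rise of 3.77 (SE 0.28, adjusted p = 1.97e-05) over pachytene cells. The values do not tell which of these probesets stands for the whole message.

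The other question was whether the members differ between PWD and B6. Probe sequences were not examined, so whether PWD sequence differences under a probeset change its reading was not tested. In prepachytene cells *Eif4g3* and *Ybx2* were higher and *Cpeb1* lower in PWD. In pachytene cells *Paip1*, *Boll* and *Paip2* were higher in PWD and none was lower. In spermatids *Boll* and *Cpeb1* were higher and none lower among the members other than *Paip1*. Thus 2 of 10 members were higher and 1 lower in prepachytene cells, against 11.9% and 6.72% of all probesets and 23.0% and 9.79% of those above the background level. In pachytene cells 3 were higher and 0 lower, against 8.64% and 4.19% of all probesets and 20.3% and 6.65% of those above the background level. In spermatids *Boll* and *Cpeb1* were higher and 0 lower, against 6.36% and 5.52% of all probesets and 14.6% and 9.13% of those above the background level. *Cpeb1* lay below the background level there in both strains. *Paip1* was chosen on its spermatid values, so its difference there is not counted. The 3 calls in pachytene cells were lost when the arrays were quantile-normalized again, with differences of 0.74 for *Boll*, 0.91 for *Paip1* and 0.43 for *Paip2* (adjusted p 0.0589 to 0.116 from limma). They were also lost when only the pachytene arrays were fitted, which left the differences as they were (adjusted p 0.0613 to 0.104). The median difference in pachytene cells was 0.41 for the members, against 0.36 for the probesets above the background level.

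*Paip1* had the widest strain differences of the members. Its probeset 1425521_at was higher in PWD than in B6 by 4.37 (SE 0.39) in prepachytene cells, 6.80 (SE 0.39) in pachytene cells and 4.21 in spermatids. It passed the background level only through its PWD groups, so no test is given for these differences. The gene was also chosen on its spermatid values. Every B6 group mean was below the background level. The B6 side of these differences therefore sets no size. The probeset 1441955_s_at gave 3.24, 6.23 and 2.63 in prepachytene cells, pachytene cells and spermatids. Its 12-array mean of 5.36 was below the background level, and only its PWD group means were above it. It is shown only because of its PWD level, so no test is given for these differences. For the brightest probeset, 1451740_at, the means in prepachytene cells were 11.63 in PWD and 11.84 in B6, a difference of -0.21 (95% interval -0.95 to 0.53, adjusted p = 0.792 from limma). In pachytene cells its difference was 1.32 (SE 0.32, adjusted p = 0.0326). That call was lost without any of 7 arrays, namely PWD pachytene replicate 2 and all 6 B6 arrays (0.82 to 1.42, adjusted p 0.0514 to 0.164). In spermatids it was 2.33, with both strain means below the background level. This is a description with no test, because the gene was chosen on its spermatid values.

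*Boll* was higher in PWD pachytene cells in all 3 of its probesets above the background level, by 1.20 (SE 0.25, adjusted p = 0.0191), 1.27 (SE 0.15, adjusted p = 0.00139) and 1.38 (SE 0.22, adjusted p = 0.00536), and PWD and B6 arrays did not overlap. In spermatids the same probesets differed by 1.22 (adjusted p = 0.0166), 0.83 (adjusted p = 0.00963) and 0.92 (adjusted p = 0.0309). In prepachytene cells they differed by 0.01 (95% interval -0.57 to 0.59), 1.45 (adjusted p = 0.000479) and 0.64 (adjusted p = 0.0893). The calls of 1456842_at were lost without replicate 2 of PWD or B6 in pachytene cells (1.04 to 1.05) and without replicate 2 of PWD or B6 in spermatids (1.09 to 1.13). That of 1432530_s_at in spermatids was lost without B6 spermatids replicate 1 (0.81, adjusted p = 0.0523), and that of 1427599_at without either B6 spermatid array or PWD spermatids replicate 2 (0.75 to 0.99). With only the compared arrays, 1427599_at lost its calls in pachytene cells (adjusted p = 0.077) and spermatids (adjusted p = 0.0807), and 1432530_s_at its call in spermatids (adjusted p = 0.103).

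*Eif4g3* averaged 12.57 in PWD and 11.40 in B6 prepachytene cells, a difference of 1.17 (SE 0.14, adjusted p = 0.000763), but 0.23 (adjusted p = 0.277) in pachytene cells and -0.17 (adjusted p = 0.487) in spermatids. *Cpeb1* averaged 8.23 in PWD and 9.78 in B6 prepachytene cells, a difference of -1.56 (SE 0.23, adjusted p = 0.00249). The prepachytene cells of PWD that showed these differences also had the higher level of the Sertoli and spermatid marker lists given above. *Ybx2* averaged 11.04 in PWD and 10.43 in B6 prepachytene cells (0.61, SE 0.18, adjusted p = 0.0481), a call lost without any of 9 arrays, all but PWD prepachytene replicate 2 and the PWD pachytene arrays (0.41 to 0.67), and under the replicate block (adjusted p = 0.076). *Paip2* averaged 8.85 in PWD and 8.12 in B6 pachytene cells (0.74, SE 0.15, adjusted p = 0.0164), lost without replicate 2 of PWD or of B6 (0.56 to 0.69). In spermatids *Cpeb1* differed by 1.10 (adjusted p = 0.017), with both strain means under 5.38, and the call was lost without PWD replicate 1 or either B6 array (0.86 to 1.11).

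Among the dimmer probesets, *Dazl* 1419542_at read 7.73 and 7.66 in PWD and 5.96 and 6.16 in B6 spermatids, a difference of 1.63 (SE 0.30, adjusted p = 0.0094), lost without B6 replicate 1 (1.54, adjusted p = 0.0529), while 1449502_at gave 0.89 (adjusted p = 0.137). *Eif4e* 1444010_at was lower in PWD spermatids by -1.78 (SE 0.39, adjusted p = 0.0214), lost without PWD replicate 1 or either B6 array (-1.80 to -1.35). No probeset of *Pabpc1* or *Ybx1* above the background level was called between the strains in any of the 3 populations. *Ybx1* differed by 0.40 in pachytene cells (adjusted p = 0.0729), a difference called when only probesets above the background level were tested (adjusted p = 0.0498) or without either PWD spermatid array (adjusted p 0.022 to 0.0221), but it was 0.01 after quantile normalization. *Eif4e* 1450908_at averaged 12.56 in PWD and 13.07 in B6 prepachytene cells (-0.51, adjusted p = 0.0596), and it was called after quantile normalization (-0.67, adjusted p = 0.00258), with centred arrays (-0.77, adjusted p = 0.00131), without dim probesets (adjusted p = 0.0329) and when either PWD spermatid array was left out (adjusted p = 0.0396).

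**Figure D3:**
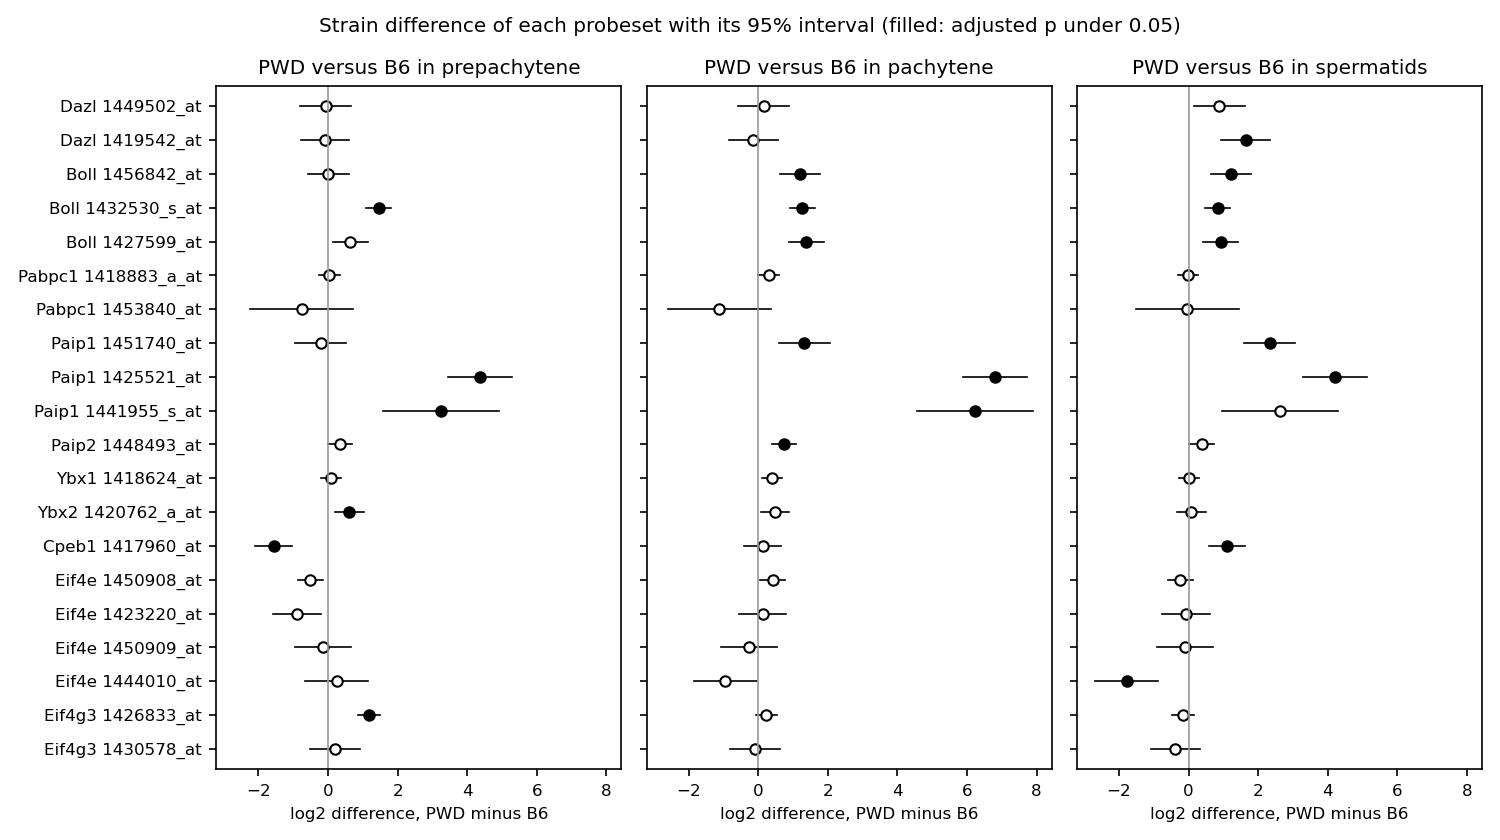
Log2 difference, PWD minus B6 (x axis), of each member probeset with a group mean above the background level (rows) in the 3 populations (panels), with its 95% interval from limma; filled points had an adjusted p under 0.05. The points of *Paip1* 1425521_at and 1441955_s_at in every panel, and of *Paip1* 1451740_at in spermatids, are descriptions, so their fill carries no test. *Paip1* 1425521_at lies farthest to the right in each panel, at 4.37, 6.80 and 4.21, and the 3 *Boll* probesets are filled in pachytene cells and spermatids.

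It was also tested whether PWD minus B6 changed with the population. The F test over both changes of population called *Cpeb1* (adjusted p = 0.00304) and *Eif4g3* (adjusted p = 0.0061), and *Dazl* 1419542_at among the other probesets (adjusted p = 0.0355), against 16.6% of all probesets. *Cpeb1* was above the background level in prepachytene cells only, so its value rests on the strain difference there. The test of *Paip1* includes the spermatid values that the gene was chosen for and is not given. For the change from prepachytene to pachytene cells alone, in which 11.7% of all probesets differed between strains, *Cpeb1*, *Eif4e* and *Eif4g3* were called. For the change from pachytene cells to spermatids, with 3.77% of all probesets called, 0 of the 10 brightest probesets were called by limma at the adjusted threshold, with *Cpeb1* and *Eif4e*, 2 of 10, at an unadjusted p under 0.05. *Paip1* 1425521_at had a value of -2.59 there, given as a description because the change includes the fall that the gene was chosen for.

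Other genes of translation were taken from 5 lists. Over all probesets 44.3% were called higher and 24.6% lower in pachytene than in prepachytene cells. For spermatids against pachytene cells these shares were 12.1% and 18.4%. Of the measured genes, 17 of 23, 11 of 11, 35 of 41, 34 of 38 and 21 of 22 had a mean above the background level, in the order of the lists below. Of 23 measured initiation factors and 4E-binding proteins, 7 were higher and 12 lower in pachytene than in prepachytene cells (median -0.42), and 5 higher and 9 lower in spermatids than in pachytene cells (median -0.13). The 4 largest differences in pachytene cells were those of *Eif2s3x* (-4.92), the kinase gene *Eif2ak4* (-4.83), *Eif2s3y* (-4.33) and the kinase gene *Eif2ak3* (-3.00). The pachytene means of *Eif2s3x*, *Eif2ak4* and *Eif2ak3* were below the background level, so the sizes of their differences are approximate. In spermatids against pachytene cells the 4 largest differences were those of *Eif2s3y* (3.24), *Eif4h* (-2.89), *Eif4e3* (2.34) and *Eif6* (-1.55). *Eif4e3* averaged 5.25 in spermatids and 2.91 in pachytene cells, both below the background level, so its place among them is approximate. Of 11 measured eIF3 subunits, 3 were higher and 4 lower in pachytene cells (median -0.17), with *Eif3i* at -1.64 and *Eif3d* at -1.05, and 1 was higher and 5 lower in spermatids (median -0.27).

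Of 41 measured poly(A)-binding and poly(A) tail genes, 13 were higher and 21 lower in pachytene cells (median -0.49), and 10 higher and 17 lower in spermatids (median -0.19). *Pabpc6*, a relative of *Pabpc1*, was higher in pachytene cells by 4.60 (SE 0.11), whereas *Tent2*, a cytoplasmic poly(A) polymerase, differed by -5.13 (SE 0.16), *Paip2b*, a relative of *Paip2*, by -4.93 (SE 0.21) and the deadenylase gene *Cnot6l* by -4.84 (SE 0.25). In spermatids *Papolg*, a poly(A) polymerase, differed by -4.68 (SE 0.19), *Cnot8*, a deadenylase, by -3.44 (SE 0.18), and *Cstf2* and *Parn* were higher by 3.44 (SE 0.31) and 3.30 (SE 0.27). The spermatid means of *Papolg* and *Cnot8* and the pachytene mean of *Cstf2* were below the background level, so these sizes are approximate. Of 38 measured germ cell RNA-binding proteins, 9 were higher and 19 lower in pachytene cells (median -0.47), and 4 higher and 24 lower in spermatids (median -1.03). *Elavl2* differed by -8.67, *Zfp36l2* by -5.31, *Lsm14a* by -4.85 and *Celf1* by -4.23 in pachytene cells, and in spermatids *Carhsp1* was higher by 4.00, *Akap1* by 3.85 and *Cpeb3* by 3.30, while *Cpeb2* differed by -3.33. The pachytene means of *Elavl2*, *Zfp36l2* and *Carhsp1* were below the background level, so the sizes of their differences are approximate.

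Of 22 stored messages, mRNAs known for delayed translation in spermatids or for binding by these proteins, 6 were higher and 13 lower in pachytene than in prepachytene cells (median -0.93), and 16 were higher and 1 lower in spermatids than in pachytene cells (median 3.03). The transition protein genes *Tnp2* and *Tnp1* were higher in spermatids by 5.25 (SE 0.17) and 4.20 (SE 0.14), and the protamine genes *Prm2* and *Prm3* by 4.10 (SE 0.12) and 3.80 (SE 0.23). This list shares 10 of its 22 genes with the 11 spermatid markers, so its count in spermatids is not separate from the check of the labels. Over probesets above the background level, 39.9% were higher and 41.9% lower in pachytene than in prepachytene cells (median -0.05), and 23.0% were higher and 45.5% lower in spermatids than in pachytene cells (median -0.38).

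Between the strains, 8 of the 23 initiation factors were higher and 1 lower in PWD in each of prepachytene and pachytene cells. The corresponding counts in pachytene cells were 2 and 0 of 11 eIF3 subunits, 9 and 0 of 41 poly(A) genes, 10 and 2 of 38 RNA-binding proteins and 3 and 1 of 22 stored messages. Of the probesets above the background level, 23.0% were higher and 9.79% lower in PWD prepachytene cells, 20.3% and 6.65% in pachytene cells and 14.6% and 9.13% in spermatids. Over all probesets these shares were 11.9% and 6.72%, 8.64% and 4.19%, and 6.36% and 5.52%. In spermatids the counts were 2 and 2 of 23, 0 and 0 of 11, 5 and 0 of 41, 7 and 2 of 38, and 1 and 4 of 22, in the order of the lists.

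**Figure D4:**
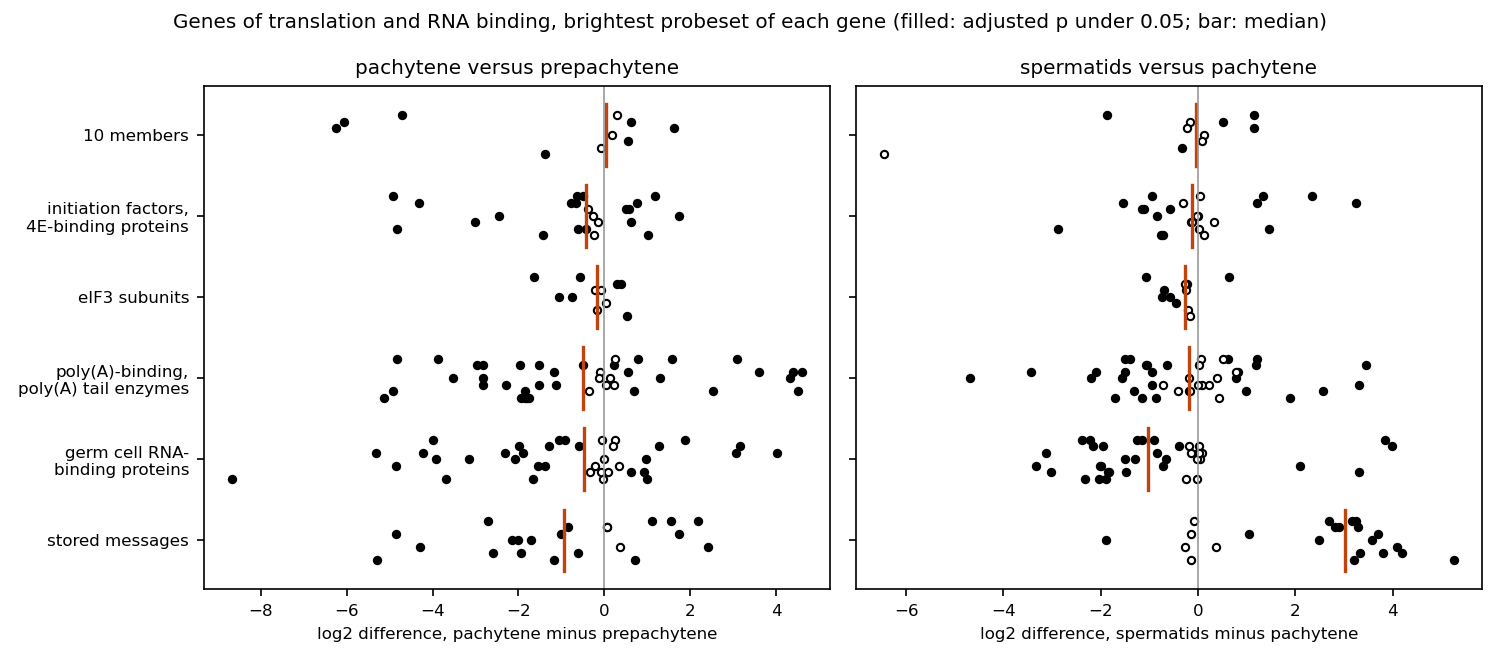
Log2 difference (x axis) of the brightest probeset of each gene of the 10 members and of 5 lists of translation genes (rows), pachytene minus prepachytene cells on the left and spermatids minus pachytene cells on the right; filled points had an adjusted p under 0.05, bars are medians, and *Paip1* is open on the right because it was not tested there. The stored messages lie mostly to the right in spermatids, with a median of 3.03, and the RNA-binding proteins mostly to the left, with a median of -1.03.

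The genes whose pattern over the 12 arrays was most like that of *Paip1* 1451740_at, by Pearson's r among 8460 genes, were *Cwf19l2* (r = 0.996), *Nop16* (r = 0.994) and *Eif4h* (r = 0.994). For *Dazl* 1449502_at they were *Mfge8* (r = 0.996), *Pgrmc1* (r = 0.994) and *Hprt* (r = 0.994). The points are arrays in 6 groups that share their population, so these coefficients describe the arrays and carry no test.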

How the data were processed

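Cells of 3 populations were sorted by flow cytometry from testes of PWD and B6 males, and total RNA of each sample was hybridised to 1 array. The authors deposited log2 expression values per probeset. Their processing notes name GCRMA without a version as the normalization, whereas the published methods describe another one, so the deposited log2 scale was kept and not redone. Groups came from the sample labels.

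After leaving out 64 control probesets, 45037 probesets entered 1 linear model of the 6 group means (limma 3.58.1, R 4.3.3). Variances were moderated along the trend with expression level, and p-values were adjusted over all probesets by the Benjamini-Hochberg method, with a threshold of 0.05. Intervals are 95% intervals of limma. The number of arrays, 2 per group, limits the precision. Genes were named from the platform annotation, in which 34945 probesets name 1 gene, 932 several and 9160 none used here. The background level was the 95th percentile of the 12-array means of probesets of other-organ genes. The script was tested on simulated data. The members, gene lists and tests were chosen with earlier results of these data known. The named genes were all 10 members with all their probesets, the 4 called genes of largest difference in each list, and the 3 genes most like *Paip1* and *Dazl* by Pearson's r among genes above the background level whose group means ranged over at least 1. Of the lists, 12 genes were not analysed here, among them *Eif4g1*, *Eif2s1* and *Cnot1*. Promoter sequences and gene positions are those of RefSeq on GRCm38.p6. Alternatives were another quantile normalization, centring on probesets above the background level, a filter on dim probesets, a threshold of 0.01, a fit of the compared groups alone, gene means over probesets, a replicate block, a random animal block, and leaving out each array. Figures were drawn with matplotlib 3.10.9.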

Additional observations from a re-analysis of the deposited data

Results flagged for a closer look

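The change between prepachytene and pachytene cells differed between PWD and B6 for *Cpeb1*, *Eif4g3* and *Eif4e* 1450908_at by a direct test in limma. *Paip1* 1425521_at is described beside them. For *Cpeb1* the difference of the changes was 1.68 (SE 0.32, adjusted p = 0.0148). The change was -5.22 in PWD and -6.90 in B6, and the pachytene means lay below the background level in both strains, so that the value rests on the strain difference in prepachytene cells. For *Eif4g3* it was -0.94 (SE 0.19, adjusted p = 0.0186), with changes of 0.08 in PWD and 1.02 in B6. For *Eif4e* 1450908_at it was 0.92 (SE 0.22, adjusted p = 0.0339), with changes of 0.65 in PWD and -0.27 in B6. For *Paip1* 1425521_at it was 2.43 (SE 0.56), with changes of 2.53 in PWD and 0.11 in B6, where the B6 means lay below the background level. Only its PWD group means passed that level, so this is a description. This comparison shares the pachytene arrays with the choice of the gene. The PWD prepachytene arrays also had the higher means of the Sertoli and spermatid marker lists, 7.75 and 7.46 for Sertoli cells against 6.85 and 6.42 in B6; their part in these differences was not tested.

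The change between pachytene cells and spermatids differed between the strains for *Paip1* 1425521_at by -2.59 (SE 0.56), with changes of -3.01 in PWD and -0.42 in B6. This is a description, because *Paip1* was chosen for its fall into spermatids, and the B6 means of 5.35 in pachytene cells and 4.93 in spermatids lay below the background level, so that the B6 change has no reliable size. Over all probesets 11.7% were called for the change into pachytene cells and 3.77% for the change into spermatids. Groups of 2 arrays are too small to look for single arrays that stand apart.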

How the results depend on the processing

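Of 2442 values under the alternatives, 2304 stayed on their side of the threshold, 62 of them uncalled values that changed sign, while 91 lost a call and 35 gained one. With each array left out in turn, the called members numbered 7 to 8 in pachytene against prepachytene cells (7 with all arrays), 3 to 6 in spermatids against pachytene cells (5), 8 to 9 in spermatids against prepachytene cells (9), and 2 to 3 (3), 0 to 4 (3) and 1 to 3 (3) between PWD and B6 in prepachytene, pachytene and spermatid cells; 2 to 4 had a strain difference that changed with the population (3, with *Paip1* counted although its spermatid values chose it). Between the strains in pachytene cells the count was 0 after another quantile normalization, at a threshold of 0.01 and with only the compared arrays. At 0.01, 3 members were called between spermatids and pachytene cells, and between the strains in spermatids only *Paip1* was left. All counts between the strains in spermatids in this section include *Paip1*, although its spermatid values chose it. With centred arrays, 5 members had a strain difference that changed with the population. With gene means over probesets, 5 were called between the strains in prepachytene cells and 5 in spermatids.

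Beside those 62, 9 values turned sign. They were, for *Paip1* 1425521_at in spermatids against prepachytene cells, 0.27 after quantile normalization and 0.10 with centring. With centring, *Pabpc1* gave 0.15 in pachytene and 0.0802 in spermatids against prepachytene cells. With gene means, *Eif4e* gave -1.09 and -0.87 in the same comparisons, *Boll* 0.21 in spermatids against prepachytene cells, *Dazl* -0.0613 in spermatids against pachytene cells and *Paip1* 2.08 between the strains in prepachytene cells. With gene means, probesets of opposite direction were averaged; the cause of the other sign changes was not tested. Centring moved the median of all probesets by 0.24 in pachytene against prepachytene cells, 0.26 in spermatids against pachytene cells and 0.50 in spermatids against prepachytene cells, and by -0.26, -0.32 and -0.09 between the strains in the 3 populations.

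Samples with the same replicate number had deviations that correlated at -0.28 to 0.11 over 15 pairs of groups, 1 of them over 0.1, so the numbers were not taken to pair the samples. With the replicate block the counts were 7, 4, 9, 2, 2, 3 and 3 in the order above. Under the replicate block, *Cpeb1* lost its call in spermatids against pachytene cells (adjusted p = 0.0534 from limma). *Ybx2* lost its call between the strains in prepachytene cells (adjusted p = 0.076), as did *Paip1* 1451740_at in pachytene cells (adjusted p = 0.0542). A random block of the arrays that share a strain and a replicate number, with a correlation of 0.000381, left the counts of called members as they were. Arrays give no read depth, and signals below 5.38 limit the size of a difference.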
